A study of Mus musculus with 64 samples.

Results

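Ion transport across the cell membrane was examined through 9 genes, measured in 64 microglia libraries of adult male mice, C57BL/6 per the labels and C57BL6/N per the study's methods. Slc4a2, Slc12a4 and Cab39l were chosen by their p-values, the 3 lowest of all genes for a difference in day-night change between hippocampus and frontal cortex. The other 6, Slc12a2, Slc12a7, Slc4a7, Slc4a10, Stk39 and Wnk1, were chosen as relatives of these genes in ion transport. The count table holds 49671 genes, and all 9 passed the count filter of each fit. Each library is labelled by region, phase (Day, Night), condition (Ctr0, Ctr1, Cogn, Soci) and replicate, which gives 16 groups of 4 libraries. All groups share the sex and the strain, and none carries a named allele. The animals lived under a reversed light-dark cycle, and per the study microglia were taken in the light and in the dark phase, which the labels call Day and Night. What the 4 conditions were is not given in the sources used here. Microglia were captured with beads against CD11b, a surface protein of myeloid cells, from tissue dissociated in the cold. The sources do not say whether a library is 1 animal, nor whether both regions came from the same animals, so p-values measure the spread between libraries.

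These genes belong to systems that move chloride, bicarbonate, potassium and sodium and so set cell volume and intracellular pH. Slc4a2 encodes AE2, which exchanges chloride for bicarbonate. Slc12a4 and Slc12a7 encode KCC1 and KCC4, which carry potassium and chloride out of the cell, and Slc12a2 encodes NKCC1, which brings sodium, potassium and chloride in. Slc4a7 and Slc4a10 encode sodium-coupled bicarbonate transporters. Wnk1 is a kinase that responds to chloride and cell volume and activates the kinase SPAK, the product of Stk39, which phosphorylates the cotransporters. Cab39l encodes MO25 beta, a scaffold that increases the activity of SPAK and of the kinase LKB1. The epithelium of the choroid plexus, which secretes cerebrospinal fluid into the ventricles beside the hippocampus, is also rich in transporters of these families. Its secreted protein transthyretin, from the gene Ttr, serves here as the measure of choroid plexus RNA.

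Slc4a2 (ENSMUSG00000028962) lies at chr5:24423837-24440950 on the plus strand, Slc12a4 (ENSMUSG00000017765) at chr8:105943590-105966097 on the minus strand and Cab39l (ENSMUSG00000021981) at chr14:59440972-59585764 on the plus strand, in GRCm38 with GENCODE M21. Exons of other genes on the opposite strand cover part of each. The share of the exon length is 13.7% for Slc4a2, where Fastk is the partner, 8.44% for Slc12a4, where Gm16156 is, and 3.82% for Cab39l, where Cdadc1 is. Genes nested in an intron on the strand of their host had a median of 2060 counts per kilobase over all libraries (625 genes), against 3.36 for those on the opposite strand (479 genes), so the counting used strand.

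The 250 bases before the RefSeq start of Slc4a2, Slc12a4 and Cab39l are shown because these genes have like levels over the 16 groups. Their choice by the same test favours that likeness, so no shared control is read from it. They come from the RefSeq promoter table (GRCm38.p6), which held 8 of the 9 genes, all but Slc12a2. The 12 windows of these 8 genes run from 250 bases before to 50 after a start. Slc4a2 and Cab39l have 2 windows each, and the first listed is printed. Capitals mark the GC box GGGCGG and the CCAAT box, on either strand. The Slc4a2 window is chr5:24424982-24425231 (plus strand), inside the GENCODE gene, the Slc12a4 window chr8:105966116-105966365 (minus strand) and the Cab39l window chr14:59440713-59440962 (plus strand).
Slc4a2: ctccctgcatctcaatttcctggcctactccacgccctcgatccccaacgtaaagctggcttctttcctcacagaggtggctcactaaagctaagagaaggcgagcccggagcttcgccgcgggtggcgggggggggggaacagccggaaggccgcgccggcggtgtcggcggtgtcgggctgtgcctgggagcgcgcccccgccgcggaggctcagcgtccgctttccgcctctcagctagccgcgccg
Slc12a4: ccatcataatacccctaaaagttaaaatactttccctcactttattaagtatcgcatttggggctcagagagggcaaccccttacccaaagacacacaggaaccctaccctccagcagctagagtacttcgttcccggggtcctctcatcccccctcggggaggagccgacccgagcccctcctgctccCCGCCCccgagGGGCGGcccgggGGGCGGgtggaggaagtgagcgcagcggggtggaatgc
Cab39l: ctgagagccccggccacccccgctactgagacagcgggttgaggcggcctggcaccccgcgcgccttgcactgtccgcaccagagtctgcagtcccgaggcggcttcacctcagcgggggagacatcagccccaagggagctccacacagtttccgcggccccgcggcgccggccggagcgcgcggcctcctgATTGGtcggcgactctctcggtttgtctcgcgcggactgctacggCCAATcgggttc
GC content was 69.2%, 60.8% and 70.8%. Slc12a4 holds 3 GC boxes and Cab39l 2 CCAAT boxes in these bases. Of all 32851 windows, 35.7% hold a GC box and 37.4% a CCAAT box.

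Sites known for clock and choroid plexus factors were searched in the full windows on both strands. Slc12a2 had no window and was not searched. The E-box CACGTG, bound by CLOCK and BMAL1, is in 7.15% of all windows. Among the 12 windows of the other 8 genes it is in 2, those of Slc12a7. The ROR element AGGTCA is in 16.3% of all windows and in 4 of these 12, of Slc12a7, Slc4a2 and Slc4a7. No window of these genes holds GGATTA, the core of the site of the choroid plexus factor OTX2, which is in 7.06% of all windows. The E-box of Slc12a7 is shown in capitals at chr13:73763647-73763670 on the plus strand.
Slc12a7: ggcaggtgaggtCACGTGgcgggc
The site overlaps the RefSeq start and lies inside the GENCODE gene. A match of letters is a description of the window and not a binding site.

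Total counts per library ran from 10156071 to 84472229. The 10 microglia markers of the marker list all passed the filter, and their summed level was between 11752 and 24495 CPM (counts-per-million, after TMM scaling). All 13 choroid plexus markers were detected too. Their sum ran from 13.4 to 3137 CPM in hippocampus Night libraries, with a median of 1762, and from 3.15 to 975 in hippocampus Day, with a median of 287. In frontal cortex it ran from 12.1 to 348 CPM at Night and from 9.37 to 490 in Day, and none of the 13 had a median of 0 in any of these sets. In bulk libraries fewer cells of a type and less RNA per cell cannot be told apart. The library labelled hippocampus Night Ctr0 replicate 4 stood apart from the other 15 of its region and phase, with 7.85 CPM of Ttr against 598 to 2464. The main values that rest on it are also given without it, a choice made after the data were seen.

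In hippocampus, Slc4a2, Slc12a4 and Cab39l were higher at Night than in Day, and in frontal cortex the phases overlapped broadly. These differences chose the genes, so they are described without a test. Slc4a2 had 35.5 to 103 CPM in hippocampus Night libraries with a median of 73.8, and 37.7 to 51.4 CPM in hippocampus Day with a median of 45.3. Of the 16 Night libraries 15 lay above every Day library, and the other, Ctr0 replicate 4, was the lowest of all 32. In frontal cortex the Night libraries had 32.7 to 44.3 CPM (median 38.9) and the Day libraries 37.5 to 44.96 (median 41.2). The log2 change, Day relative to Night, was -0.65 ± 0.10 (SE) in hippocampus and 0.11 ± 0.04 (SE) in frontal cortex, n = 16 libraries per phase.

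Slc12a4 followed the same order at lower levels. Its hippocampus Night libraries had 17.96 to 34.1 CPM with a median of 28.7, and its hippocampus Day libraries 16.8 to 20.4 with a median of 18.2. Again 15 of 16 Night libraries lay above every Day library. In frontal cortex the levels were 15.8 to 22.8 CPM at Night (median 19.5) and 15.9 to 21.3 in Day (median 18.9), so that 3 of the 4 sets of libraries were at nearly 1 level. The log2 change was -0.58 ± 0.06 (SE) in hippocampus and -0.05 ± 0.05 (SE) in frontal cortex.

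Cab39l had the widest spread of these genes. Hippocampus Night libraries ran from 14.1 to 53.9 CPM with a median of 35.9, and 10 of 16 lay above every Day library. Hippocampus Day libraries ran from 11.9 to 29.6 CPM with a median of 15.1. The highest of them, Ctr0 replicate 3, also had the highest Ttr level of the hippocampus Day libraries, 799 CPM. In frontal cortex the levels were 10.5 to 19.4 CPM at Night (median 13.6) and 12.6 to 20.1 in Day (median 14.6). The log2 change was -1.03 ± 0.16 (SE) in hippocampus and 0.08 ± 0.07 (SE) in frontal cortex.

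The difference between the regions in the day-night change, hippocampus minus frontal cortex, was -0.80 ± 0.10 for Slc4a2, -0.57 ± 0.08 for Slc12a4 and -1.15 ± 0.18 for Cab39l (log2, SE). The next genes in the ranking, just outside the choice, were Col9a3 at -2.15 ± 0.33 and Tubb4b at -0.87 ± 0.14. In all, 191 of 16069 genes passed in this test, or 1.19%, a share from which nothing is read for the genes it chose. Without hippocampus Night Ctr0 replicate 4 the values were -0.84 ± 0.09, -0.59 ± 0.08 and -1.20 ± 0.16.

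**Figure D1:**
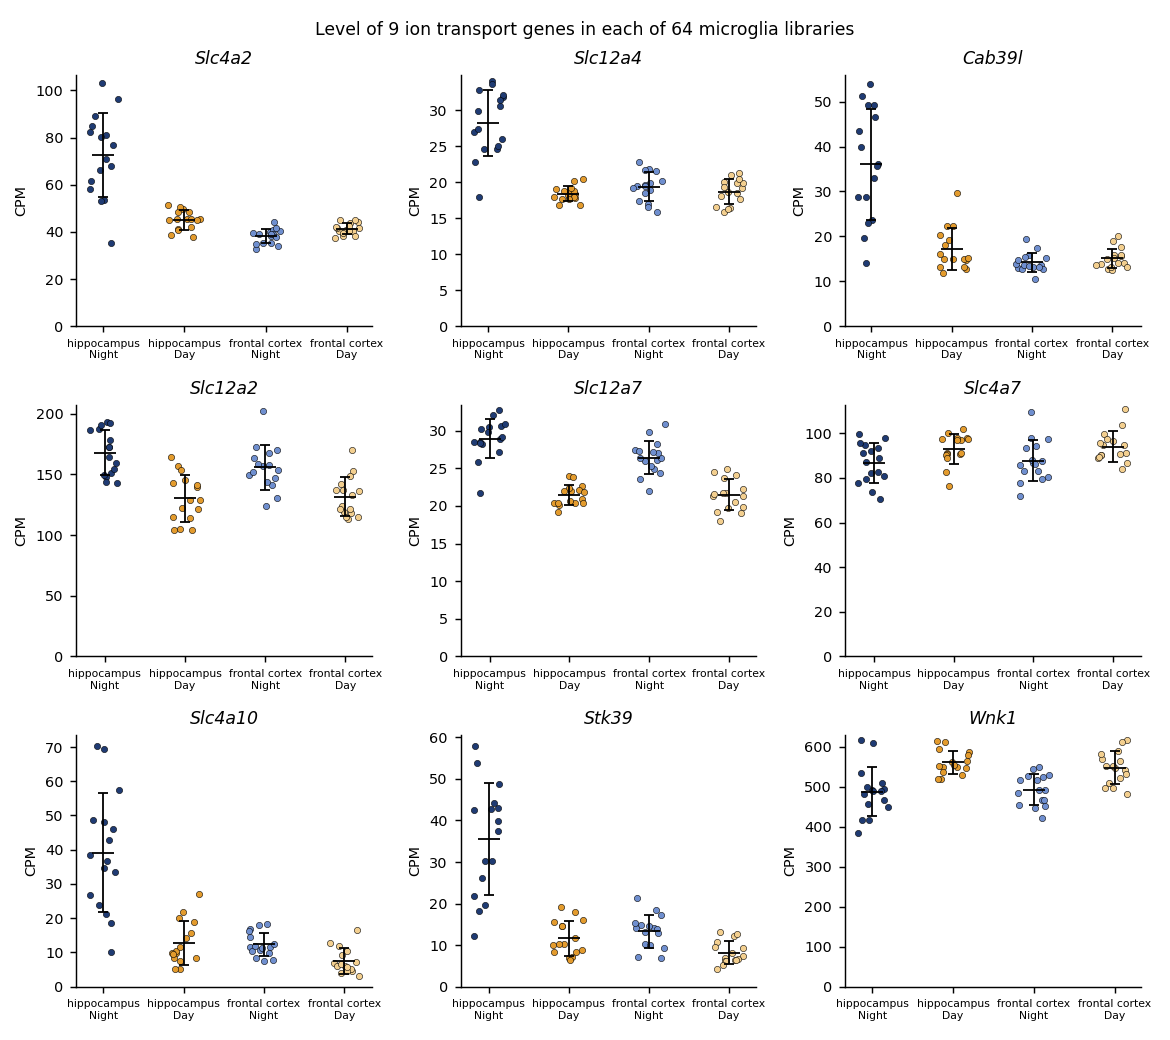
Level of each of the 9 genes in CPM (linear axes from 0) in every library, by region and phase, 16 libraries per set, with the mean and SD as a bar. The hippocampus Night set stands above the other 3 for Slc4a2, Slc12a4, Cab39l, Slc4a10 and Stk39, with Night Ctr0 replicate 4 at or near the level of the Day set. Wnk1 and Slc4a7 have no such set.

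No gene of the 9 had phases that did not overlap at all in either region, which held for 0.457% of all genes tested in hippocampus and 0.354% in frontal cortex. Without hippocampus Night Ctr0 replicate 4 the phases of Slc4a2 and Slc12a4 no longer overlapped in hippocampus, the lowest Night libraries having 53.1 and 22.8 CPM and the highest Day libraries 51.4 and 20.4. The share of all genes was then 0.67%. Nothing is read from it for Slc4a2 and Slc12a4, since their day-night difference chose them and the library was left out after the data were seen.

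The 6 relatives were tested within each region with the quasi-likelihood test of edgeR, adjusted over all genes tested by the method of Benjamini and Hochberg at a threshold of 0.05. In hippocampus all 6 passed, where 42.2% of all genes did. In frontal cortex 5 of 6 passed, where 41.8% of all genes did. Stk39, Slc4a10, Slc12a7 and Slc12a2 were lower in Day in both regions, and Wnk1 was higher in Day in both. Slc4a7 was higher in Day in hippocampus alone, and the test of the difference between regions did not pass for it.

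Stk39, which encodes the kinase SPAK, had 12.1 to 57.9 CPM in hippocampus Night libraries with a median of 38.7, and 6.50 to 19.0 CPM in Day with a median of 10.2. Of the Night libraries 14 of 16 lay above every Day library. Its log2 change was -1.58 ± 0.19 (SE; edgeR, adjusted p = 9.18e-08). In frontal cortex it had 6.76 to 21.4 CPM at Night (median 13.9) and 4.201 to 13.2 in Day (median 7.23). There it changed by -0.70 ± 0.16 (SE; edgeR, adjusted p = 0.000701), with 10 of 16 Night libraries above every Day library.

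Slc4a10, a sodium-coupled bicarbonate transporter of neurons and choroid plexus, had levels and changes close to those of Stk39. In hippocampus it ran from 10.0 to 70.2 CPM at Night (median 37.6) and from 5.17 to 27.2 in Day (median 10.1), and changed by -1.59 ± 0.24 on the log2 scale (SE; edgeR, adjusted p = 2.49e-06). In frontal cortex it ran from 7.34 to 18.2 CPM at Night (median 11.4) and from 3.08 to 16.6 in Day (median 6.27), a change of -0.71 ± 0.19 (SE; edgeR, adjusted p = 0.00282). The phases overlapped in both regions, with 11 and 3 of 16 Night libraries above every Day library.

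Slc12a7, which encodes KCC4, changed less and more evenly. In hippocampus its Night libraries had 21.7 to 32.7 CPM (median 29.0) and its Day libraries 19.2 to 23.9 (median 21.4), and it changed by -0.39 ± 0.04 on the log2 scale (SE; edgeR, adjusted p = 2.52e-08). In frontal cortex the levels were 22.0 to 30.9 CPM at Night (median 26.3) and 17.96 to 24.9 in Day (median 21.5), a change of -0.30 ± 0.05 (SE; edgeR, adjusted p = 8.84e-06). Above every Day library lay 15 of 16 Night libraries in hippocampus and 13 of 16 in frontal cortex. The exception in hippocampus was Ctr1 replicate 3.

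Slc12a2, which encodes NKCC1, had the second highest level per length after Wnk1. In hippocampus it ran from 143 to 193 CPM at Night (median 168) and from 104 to 164 in Day (median 129). In frontal cortex it ran from 124 to 203 CPM at Night (median 155) and from 113 to 170 in Day (median 128). The log2 change was -0.32 ± 0.07 (SE; edgeR, adjusted p = 0.000197) in hippocampus and -0.25 ± 0.06 (SE; edgeR, adjusted p = 0.00127) in frontal cortex. Night and Day libraries overlapped in both regions.

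Wnk1, the kinase upstream of SPAK, moved the other way. In hippocampus it had 385 to 616 CPM at Night (median 490) and 520 to 616 in Day (median 554), and it changed by 0.24 ± 0.05 on the log2 scale (SE; edgeR, adjusted p = 0.000275). In frontal cortex it had 421 to 550 CPM at Night (median 492) and 481 to 618 in Day (median 549), a change of 0.15 ± 0.04 (SE; edgeR, adjusted p = 0.00387). With library totals alone as the scaling neither passed (adjusted p = 0.7 and 0.533), and the median of all genes was then -0.14 in hippocampus and -0.09 in frontal cortex. Slc4a7, which encodes the bicarbonate transporter NBCn1, had 70.4 to 99.9 CPM at Night and 76.3 to 102 in Day in hippocampus. The change of 0.14 ± 0.05 (SE; edgeR, adjusted p = 0.0186) turned to -0.026 with library totals alone, so its direction depends on the scaling. It did not pass without replicate 1, 2 or 4 (edgeR, adjusted p = 0.315, 0.286 and 0.0539). In frontal cortex it had 72.1 to 110 CPM at Night and 83.8 to 111 in Day, and the change of 0.10 ± 0.05 (SE) did not pass (edgeR, adjusted p = 0.0850).

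**Figure D2:**
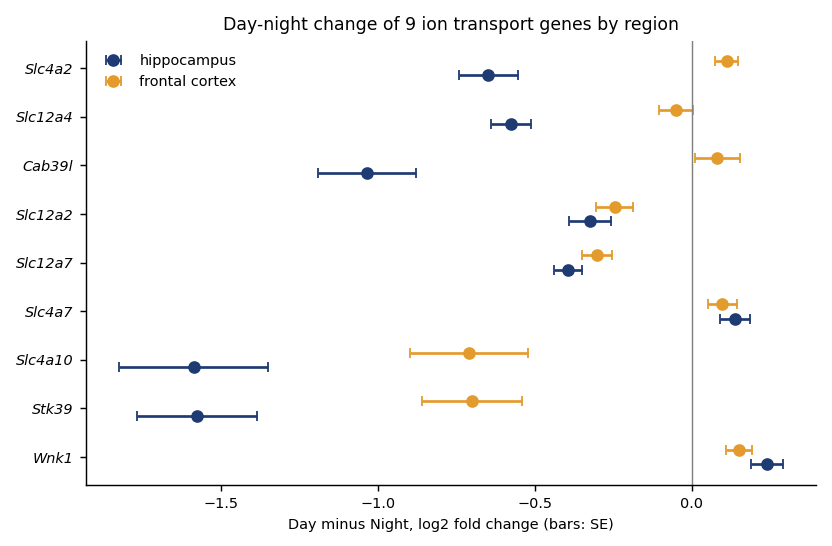
Log2 fold change, Day relative to Night, of the 9 genes in hippocampus (blue) and frontal cortex (orange), with SE, 16 libraries per phase. Slc4a2, Slc12a4 and Cab39l, which were chosen for this gap, lie between -1.03 and -0.58 in hippocampus. In frontal cortex they lie between -0.05 and 0.11, with Slc4a2 above 0 at 0.11 ± 0.04 (SE). Stk39 and Slc4a10 are lower in Day in both.

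Averaged over the regions, all 6 relatives passed (edgeR), where 55.8% of all genes did. The first 3 genes are again given without a test, since the average holds the hippocampus change that chose them. Slc4a2 had an averaged log2 change of -0.29 ± 0.05, Slc12a4 of -0.33 ± 0.04 and Cab39l of -0.49 ± 0.09 (SE), with the hippocampus holding nearly all of it. With the choroid plexus score, the mean log2 CPM of the 13 choroid plexus markers, as a covariate these values were -0.10 ± 0.05, -0.23 ± 0.05 and -0.12 ± 0.07 (SE). Stk39 and Slc4a10 had averaged changes of -1.16 ± 0.13 and -1.17 ± 0.16 (SE). Slc12a7 and Slc12a2 changed by -0.37 ± 0.03 and -0.30 ± 0.04, and Wnk1 and Slc4a7 by 0.18 ± 0.03 and 0.10 ± 0.03 (SE). With library totals alone Wnk1 had 0.08 and Slc4a7 -0.00321, neither of which passed, and Slc4a7 did not pass without replicate 1 or 2 either (edgeR, adjusted p = 0.145 and 0.0516). With 7 cell type scores as covariates 2 of the 6 passed, Slc12a7 and Slc12a2. Of all genes 3091 were then higher and 2750 lower in Day, against 8964 called in the main fit.

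Of the 6 relatives, Stk39 was past the threshold in the test of a region-dependent day-night change, where 1.19% of all genes were. The difference was -0.92 ± 0.25 (SE; edgeR, adjusted p = 0.0481), rank 186 of the 191 genes called, and the call was lost without replicate 1, 2 or 4 (adjusted p = 0.314, 0.557 and 0.145) and under 9 other settings, with adjusted p from 0.00797 to 0.658 over all alternatives. Slc4a10 had a difference of nearly the same size, -0.91 ± 0.31 (SE), that did not pass (edgeR, adjusted p = 0.150). The differences of Slc12a7, -0.13 ± 0.06, Slc12a2, -0.12 ± 0.09, Wnk1, 0.05 ± 0.06, and Slc4a7, -0.00051 ± 0.065 (SE), did not pass either (edgeR, adjusted p from 0.454 to 0.998). Ttr itself had -2.07 ± 0.80 (SE; edgeR, adjusted p = 0.264).

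Averaged over the phases, 2 of the 6 relatives were higher in hippocampus than in frontal cortex and 4 did not pass, where 16.6% of all genes passed. Slc4a10 was higher by a log2 of 1.21 ± 0.16 (SE; edgeR, adjusted p = 1.10e-08) and Stk39 by 0.96 ± 0.13 (adjusted p = 2.47e-08). The values of the first 3 genes hold the hippocampus Night levels that chose them and have no test. They were 0.76 ± 0.09 for Cab39l, 0.52 ± 0.05 for Slc4a2 and 0.26 ± 0.04 for Slc12a4 (log2, SE). The differences of Slc12a2, Slc12a7, Slc4a7 and Wnk1 lay between -0.02 and 0.07 (adjusted p from 0.154 to 0.869). Ttr was higher in hippocampus by 2.89 ± 0.42 (SE), and all 13 choroid plexus markers passed in that direction. With the choroid plexus score as a covariate neither Slc4a10 (0.27 ± 0.16) nor Stk39 (0.37 ± 0.15, SE) passed (edgeR, adjusted p = 0.439 and 0.238), and Cab39l, Slc4a2 and Slc12a4 had 0.20 ± 0.09, 0.27 ± 0.06 and 0.12 ± 0.05 (log2, SE). Of all genes 162 were higher and 69 lower in hippocampus in that fit, against 2667 called in the main fit.

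Levels of different genes were compared per kilobase of exon. In hippocampus Night libraries Wnk1 had 21.4 ± 2.71 CPM per kilobase and Slc12a2 15.4 ± 1.70 (SD, n = 16). Slc4a2 followed with 8.72 ± 2.13, Stk39 with 7.17 ± 2.71, Slc12a4 with 6.60 ± 1.06, Slc4a10 with 6.09 ± 2.697, Slc4a7 with 5.71 ± 0.58 and Cab39l with 5.27 ± 1.80, neighbours that do not differ beyond their SD. Slc12a7 was the lowest with 2.29 ± 0.21. In frontal cortex Day libraries the order was Wnk1 24.0 ± 1.78, Slc12a2 12.05 ± 1.48, Slc4a7 6.19 ± 0.44, Slc4a2 4.97 ± 0.28 and Slc12a4 4.37 ± 0.41 CPM per kilobase (SD, n = 16). Cab39l had 2.21 ± 0.32, Slc12a7 1.69 ± 0.16, Stk39 1.65 ± 0.56 and Slc4a10 1.17 ± 0.58. The order thus differs between the sets, with Stk39 after Slc4a2 in the first and after Slc12a7 in the second.

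Over the 16 groups, the 4 hippocampus Night groups had the 4 highest mean levels of Slc4a2, Slc12a4, Cab39l, Slc4a10, Stk39 and Ttr. Slc4a2 had 79.0 ± 18.2 CPM in Night Ctr1, 75.5 ± 11.9 in Night Cogn, 70.4 ± 28.0 in Night Ctr0 and 65.4 ± 12.97 in Night Soci (SD, n = 4), and these 4 do not differ beyond their SD. The other 12 group means lay between 35.2 and 46.8 CPM. Slc12a4 had 29.8 ± 4.31 CPM in Night Cogn, 29.5 ± 3.44 in Night Ctr1, 27.3 ± 6.77 in Night Ctr0 and 26.3 ± 3.91 in Night Soci (SD, n = 4), with the other 12 between 17.6 and 21.3. Cab39l had 42.7 ± 12.8 CPM in Night Ctr1, 35.2 ± 6.19 in Night Cogn, 34.2 ± 16.9 in Night Ctr0 and 32.04 ± 13.5 in Night Soci, with the other 12 between 12.95 and 21.8. The large SD of Night Ctr0 comes with replicate 4, which had 35.5, 17.96 and 14.1 CPM of these 3 genes.

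Conditions were compared in each region with the phases averaged, and no gene of the 9 passed. In hippocampus 0 of 16826 genes passed (0%; edgeR), and 1090 had an unadjusted p under 0.05. In frontal cortex 0 of 16238 passed (0%; edgeR), and 1094 had an unadjusted p under 0.05. Without replicate 1, 328 genes passed in hippocampus, and with library totals alone 3862, none of the 9 among them. The lowest p of the 9 genes was that of Slc12a2 in hippocampus, unadjusted 0.0140 (edgeR, adjusted p = 0.668). The day-night change did not differ among conditions for any of the 9. In hippocampus 0 of 16826 genes passed that test (0%; edgeR; 695 with an unadjusted p under 0.05), and in frontal cortex 1 of 16238 did, or 0.00616% (603 with an unadjusted p under 0.05).

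Values within conditions and replicates come from the libraries that chose Slc4a2, Slc12a4 and Cab39l, so for these genes they are a description. Within each of the 4 conditions the hippocampus values of Slc4a2 were lower in Day, by a log2 between -0.90 and -0.46. Those of Slc12a4 lay between -0.71 and -0.45, and those of Cab39l between -1.43 and -0.52. The smallest value of Cab39l, in Ctr0, rests on Night Ctr0 replicate 4. Without that library the Ctr0 values were -0.82 for Slc4a2, -0.71 for Slc12a4 and -0.89 for Cab39l (3 Night libraries), and the smallest of Cab39l was then -0.88 in Soci. In frontal cortex the same genes ranged from 0.03 to 0.22, from -0.18 to 0.11 and from -0.13 to 0.27. Stk39 was lower in Day in all 4 conditions of both regions, between -1.74 and -1.33 in hippocampus (Ctr0 -1.33, and -1.77 without that library) and between -1.05 and -0.30 in frontal cortex. Slc4a10, Slc12a7 and Slc12a2 had the same sign in all 8 as well. Within replicates 1 to 3 the region difference in the day-night change was -0.83 for Slc4a2, -0.64 for Slc12a4 and -1.16 for Cab39l (mean log2 CPM, n = 12 per set), and within replicate 4 it was -0.56, -0.27 and -0.96 (n = 4 per set). Without Night Ctr0 replicate 4 the values within replicate 4 were -0.81, -0.42 and -1.28.

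**Figure D3:**
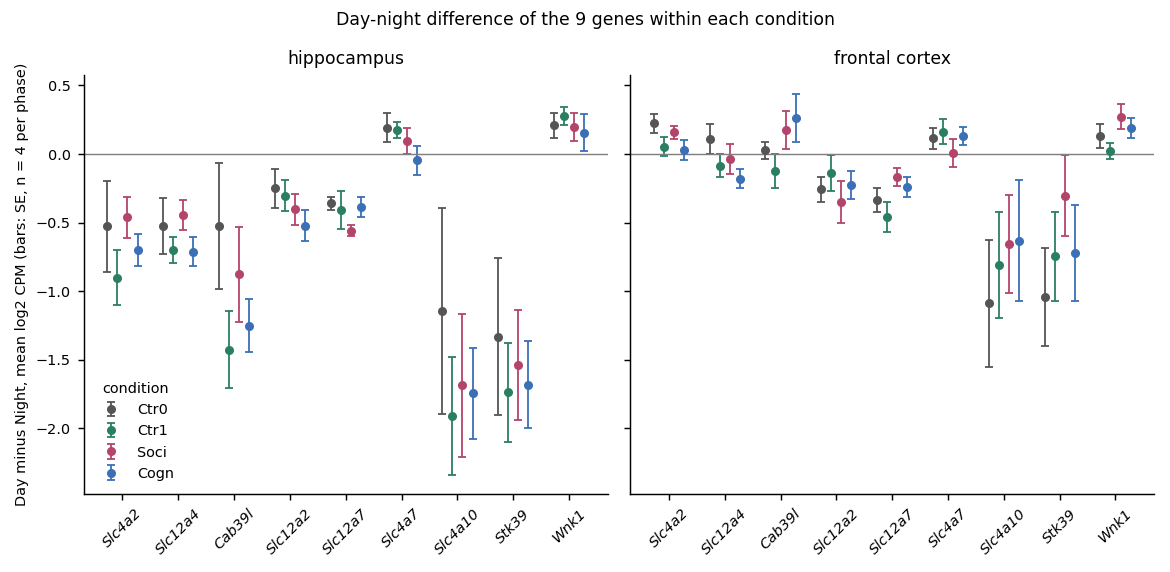
Difference of mean log2 CPM, Day minus Night, within each condition, with SE from 4 libraries per phase, in hippocampus (left) and frontal cortex (right). In hippocampus the values of Slc4a2, Slc12a4, Cab39l, Slc4a10 and Stk39 are under 0 in all 4 conditions. In frontal cortex those of the first 3 lie between -0.18 and 0.27, and those of Slc4a2 are above 0 in all 4.

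The level of each gene was set against that of Ttr in the 16 libraries of each region and phase, which gave 36 relations. Pearson's r and Spearman's rho were tested by permutation (100000 resamples, 2-sided, smallest possible p 1e-05) and adjusted over the 36. In hippocampus Night libraries 5 of the 9 genes passed, all with a positive r, and 0.741% of all genes had an r with Ttr at least as far from 0 as the smallest of these 5. In hippocampus Day libraries 1 passed, where 1.43% of all genes were as far from 0, in frontal cortex Day 1, where 0.815% were, and in frontal cortex Night 0 (2 with an unadjusted p under 0.05 by permutation). The 9 genes share the libraries and their depth, so these relations are not independent of each other. The permutation shuffled the 16 libraries of a set freely, without regard to replicate number.

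In hippocampus Night libraries r with Ttr was 0.86 for Slc4a2, 0.85 for Slc4a10, 0.83 for Slc12a4, 0.82 for Stk39 and 0.81 for Cab39l (permutation test, p = 1e-05 and adjusted p = 7.2e-05 for each, n = 16). Spearman's rho was 0.92, 0.97, 0.84, 0.97 and 0.95 in the same order (permutation test, p = 7e-05 for Slc12a4 and 1e-05 for the others). Without the 2 libraries farthest from the median of Ttr, 1 of which is Ctr0 replicate 4, r was 0.89, 0.94, 0.77, 0.96 and 0.95 (n = 14). Within replicates 1 to 3 it was 0.87, 0.93, 0.78, 0.96 and 0.95 (n = 12). After the mean of each replicate number was subtracted it was 0.88, 0.85, 0.90, 0.81 and 0.83, a choice made after the data were seen. Replicate 2 of the 4 conditions had 1826 to 2299.5 CPM of Ttr and 31.8 to 34.1 of Slc12a4, and replicate 3 had 821 to 1429 and 24.6 to 27.0, so the levels of both also moved with the replicate number. Libraries with more Ttr had more of each of these 5 RNAs. The slope was 0.32 log2 units per log2 unit of Ttr for Slc4a10, 0.27 for Stk39, 0.23 for Cab39l, 0.17 for Slc4a2 and 0.11 for Slc12a4.

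The other 4 genes did not pass in hippocampus Night libraries. Slc12a2 had r = 0.27 (permutation test, p = 0.380, adjusted p = 0.548) but rho = 0.72 (permutation test, p = 0.00262, adjusted p = 0.0118), and without Ctr0 replicate 4 r was 0.74 (permutation test, adjusted p = 0.0111, n = 15), so 1 library decided this value. Slc12a7 had r = 0.26 (permutation test, p = 0.221), Wnk1 -0.10 (p = 0.605) and Slc4a7 -0.31 (p = 0.250), all with n = 16.

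In hippocampus Day libraries Slc4a10 had r = 0.64 (permutation test, p = 0.00558, adjusted p = 0.0287, n = 16) and 0.75 without the 2 farthest libraries. It did not pass without replicate 3 or 4 (adjusted p = 0.193 and 0.144). Cab39l had r = 0.63 (permutation test, p = 0.0112, adjusted p = 0.0506) and rho = 0.81 (permutation test, p = 3e-04, adjusted p = 0.00180). Its r was 0.87 without the 2 farthest libraries (n = 14), and it passed without replicate 2 (0.83, permutation test, adjusted p = 0.00571). The lowest Ttr level of the hippocampus Day libraries was 0.675 CPM, in a Ctr0 library. Slc4a2 and Slc12a4 had r of 0.44 and 0.38 there (permutation test, adjusted p = 0.215 and 0.310), with slopes of 0.02 and 0.01. In frontal cortex Day libraries Cab39l had r = 0.69 (permutation test, p = 0.00440, adjusted p = 0.0264), which rests on the 2 libraries with the most Ttr, Cogn replicate 4 and Soci replicate 4, since r was 0.37 without them. Without replicate 3 it did not pass either (0.67, adjusted p = 0.0776). In frontal cortex Night libraries the highest was Slc4a2 with r = 0.59 (permutation test, p = 0.0145, adjusted p = 0.0580, n = 16), which was 0.41 without the 2 farthest. Without replicate 1 Slc4a2 and Cab39l passed there (r = 0.72 and 0.71, adjusted p = 0.0421 and 0.0450, n = 12).

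**Figure D4:**
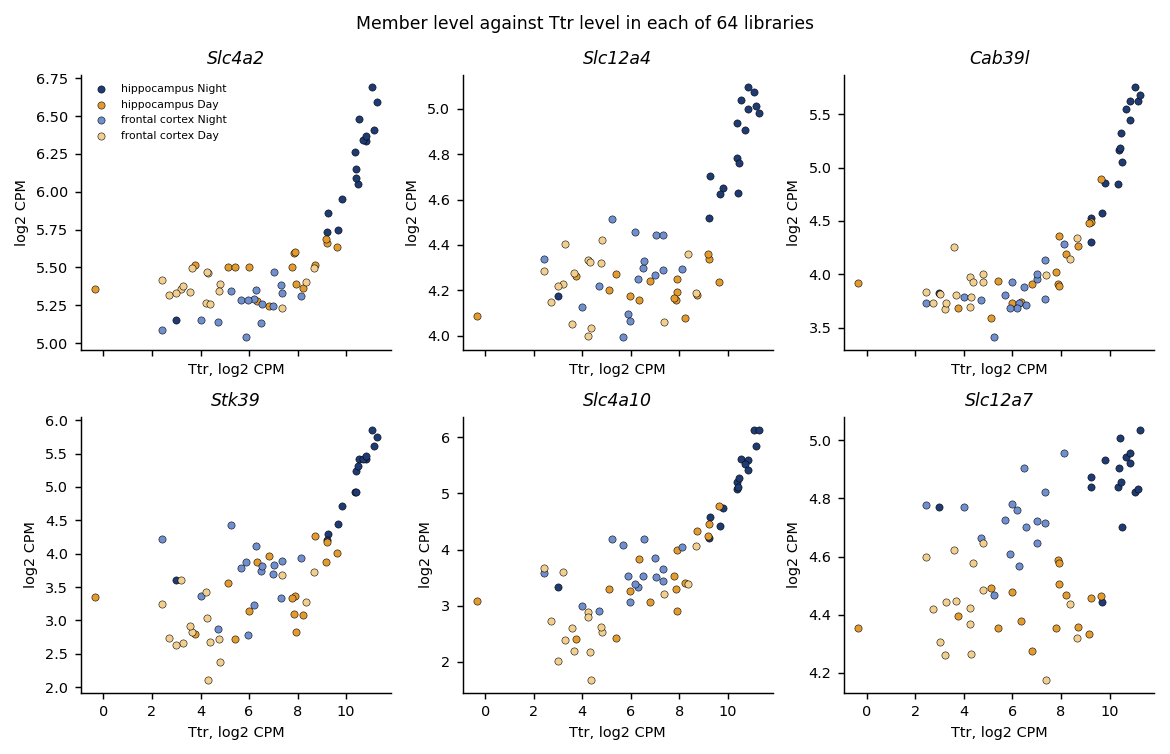
Level of 6 of the genes against that of Ttr (both log2 CPM) in each of 64 libraries, coloured by region and phase. At the right of each panel the hippocampus Night points of Slc4a2, Slc12a4, Cab39l, Stk39 and Slc4a10 climb with Ttr, and the single hippocampus Night point at the left is Ctr0 replicate 4. Slc12a7 shows no such climb.

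The day-night change was also fitted with measures of other cell types as covariates. Within the hippocampus, the log2 changes of Slc4a2, Slc12a4 and Cab39l were -0.41 ± 0.10, -0.43 ± 0.07 and -0.59 ± 0.15 (SE) with Ttr, and -0.30 ± 0.10, -0.38 ± 0.07 and -0.39 ± 0.13 with the choroid plexus score. With the scores of 7 other cell types together, added after the data were seen, they were -0.35 ± 0.15, -0.36 ± 0.12 and -0.05 ± 0.19 (SE). The hippocampus change of Cab39l was thus smaller than its SE in the last of these fits. With Ttr as a covariate the region difference in the day-night change was -0.70 ± 0.09 for Slc4a2, -0.51 ± 0.08 for Slc12a4 and -0.94 ± 0.14 for Cab39l. With the choroid plexus score it was -0.62 ± 0.09, -0.47 ± 0.08 and -0.78 ± 0.13. With the 7 scores it was -0.63 ± 0.12, -0.55 ± 0.11 and -0.43 ± 0.15 (log2, SE). The region differences of all 3 genes kept the sign in these 3 fits, and that of Cab39l moved most. Since this difference chose the genes, the kept sign is a description. Within the hippocampus, 4 of the 6 relatives passed with the choroid plexus score, Slc12a2 and Slc4a7 being lost, and 1, Slc12a7 at -0.40, with the 7 scores (edgeR, adjusted p = 0.0354). Calls over all genes fell as well, from 6550 in the main fit. With the choroid plexus score 2396 genes were higher and 1809 lower in Day, and with the 7 scores 221 and 116. In frontal cortex 2 of 6 passed with the 7 scores. Of all genes 1291 were then higher and 785 lower in Day there, against 6266 called in the main fit. The region difference in the day-night change of Stk39 was -0.67 ± 0.24, -0.49 ± 0.23 and -0.48 ± 0.21 (log2, SE). That of Slc4a10 was -0.56 ± 0.26, -0.32 ± 0.24 and -0.47 ± 0.25. The order is with Ttr, with the choroid plexus score and with the 7 scores. None of these region differences passed (edgeR, adjusted p from 0.155 to 0.892). Over all genes 191 region differences were called in the main fit. With Ttr 21 were above and 58 under 0, with the choroid plexus score 8 and 16, and with the 7 scores 318 and 735. Whether RNA of choroid plexus accounts for the levels of these genes was not tested.

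**Figure D5:**
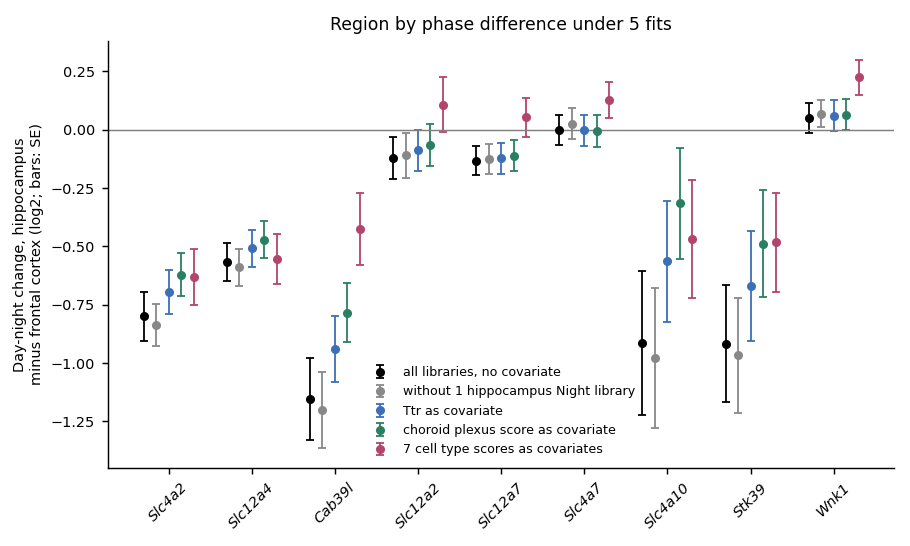
Difference between regions in the day-night change (log2, hippocampus minus frontal cortex, with SE) for the 9 genes with all libraries, without hippocampus Night Ctr0 replicate 4, and with Ttr, the choroid plexus score or 7 cell type scores as covariates. Slc4a2 and Slc12a4 stay between -0.84 and -0.47 in all 5 fits, and Cab39l lies between -1.20 and -0.43.

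Other marker lists moved between the phases too, some of them in 1 region more than in the other. In hippocampus 13 of 13 choroid plexus markers, 4 of 4 tested ependymal cilia markers, 6 of 7 astrocyte markers, 7 of 8 oligodendrocyte markers and 6 of 8 endothelial markers were lower in Day, and 8 of 10 microglia markers and 6 of 6 border macrophage markers were higher, where 42.2% of all genes passed in either direction. There 1 astrocyte marker was higher in Day. In the remaining lists 1 of 8 neuron markers and 3 of 5 tested mural and fibroblast markers were lower in Day in hippocampus. Of 4 tested neutrophil and monocyte markers 1 was higher and 1 lower. In frontal cortex, where 41.8% of all genes passed, none of the 5 choroid plexus markers tested passed (edgeR, median log2 change -0.45), and 6 of 7 astrocyte, 7 of 8 neuron and 5 of 8 oligodendrocyte markers were lower in Day. Higher in Day in frontal cortex were 5 of 10 microglia and 5 of 6 border macrophage markers. Of the endothelial markers 1 of 8 was lower there, of the tested mural and fibroblast markers 1 of 5, and of the tested ependymal cilia markers 1 of 1. Of 4 tested neutrophil and monocyte markers 0 passed. The summed level of the 7 astrocyte markers was 330 to 1832 CPM in hippocampus Night and 315 to 511 in hippocampus Day libraries, and 275 to 2449 and 324 to 604 in frontal cortex. The part of these cells in the day-night changes of the 9 genes was not tested.

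The families of the 9 genes were described from 6 lists, which hold the 9 genes themselves, the chosen Slc12a4, Slc4a2 and Cab39l included. Slc12a4 is counted among the cotransporters, Slc4a2 among the SLC4 transporters and Cab39l in the WNK-SPAK cascade. The counts of those lists are a description and not a test of the families. The counts are of the averaged change, in which 55.8% of all genes passed in either direction. Of the 9 cation-chloride cotransporters 6 passed the filter, and averaged over regions 5 were lower and 1 higher in Day, with a median log2 change of -0.32 against -0.02 over all genes. Of 10 SLC4 bicarbonate transporters 7 passed the filter, 6 lower and 1 higher in Day, with a median of -0.58. Slc4a4, a sodium-bicarbonate cotransporter abundant in astrocytes, fell by 0.75 on the log2 scale (SE 0.14, edgeR adjusted p = 9.38e-06) with no detected region difference in this change (0.17 ± 0.28, SE; adjusted p = 0.902).

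In the WNK-SPAK cascade 11 of 11 genes passed the filter, 6 lower and 4 higher in Day, with a median of -0.24. Of all genes 55.8% were called in this averaged change. Cab39, which encodes the paralogous scaffold MO25 alpha, rose by 0.20 ± 0.03 (SE; edgeR, adjusted p = 1.47e-06). Its change was 0.22 ± 0.05 in hippocampus and 0.21 ± 0.05 in frontal cortex (SE). The log2 difference between the regions in that change, -0.03 ± 0.07 (SE), did not pass (edgeR, adjusted p = 0.939). Cab39l, described without a test, had the opposite sign in hippocampus, -1.03 ± 0.16, and not in frontal cortex, 0.08 ± 0.07 (SE).

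Among 6 sodium pump subunits that passed the filter, 4 were lower and 1 higher in Day, with a median of -0.38. The share of all genes called, 55.8%, also stands beside the carbonic anhydrase and exchanger counts that follow. Atp1b2, a subunit typical of astrocytes, fell by 0.91 on the log2 scale (SE 0.13, edgeR adjusted p = 3.79e-08), and Atp1b3 rose by 0.21 ± 0.04 (SE; edgeR, adjusted p = 6.60e-06). Of 11 carbonic anhydrases that passed, 8 were lower and 0 higher in Day (edgeR), with a median of -0.80. Car12 fell by 1.58 on the log2 scale (SE 0.26) and was higher in hippocampus by 2.48 ± 0.26 (SE; edgeR, adjusted p = 3.64e-11). Car2 fell by 1.24 and Car10 fell by 0.52. These are averages over the regions. Within hippocampus Car10 did not pass (-0.33 ± 0.19, SE; edgeR, adjusted p = 0.157). Within frontal cortex Car12 did not pass (-0.66 ± 0.34, SE; edgeR, adjusted p = 0.119), with medians of 2.02 CPM at Night and 1.01 in Day. The region difference in the day-night change did not pass for Car10 or Car12 (edgeR, adjusted p = 0.827 and 0.0547). Of 7 sodium-proton exchangers 1 was lower, Slc9a8 at -0.24 ± 0.04, and 1 higher, Slc9a9 at 0.14 ± 0.04 (SE), with a median of 0.06. Within frontal cortex Slc9a9 did not pass (0.08 ± 0.06, SE; edgeR, adjusted p = 0.283).

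Likeness to the first 3 genes was measured as Pearson's r of mean log2 CPM over the 16 groups, among 10941 genes, as a description. The genes most like Slc4a2 were Tubb4b (r = 0.98), Cfap43 (0.96) and Bad (0.96). Those most like Slc12a4 were Acad8 (0.98), Fn3krp (0.97) and Efemp2 (0.96), and those most like Cab39l were Cul4b (0.98), Cfap43 (0.97) and Atp5g1 (0.97). Among the 9 genes Slc4a10 and Stk39 were the pair with the highest r (0.99), and Slc4a2 and Cab39l, both chosen by the same test, had 0.96. Wnk1 had r between -0.83 and -0.41 with all of the others but Slc4a7 (0.58).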

How the data were processed

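The authors mapped reads of ribosome-depleted RNA with STAR 2.7.3a and assigned them to genes with featureCounts of Subread 2.0.0 on GRCm38.p5, per the labels. The deposited values are raw counts per gene, with no division by depth or length. The handling of reads with several positions is not given in the sources used here. Counts were analysed with edgeR 4.0.16 (TMM, filterByExpr, quasi-likelihood test) in R 4.3.3. Each region was fitted alone for its day-night change and with 8 phase and condition means for conditions. A fit of all 64 libraries gave the averaged changes and the region by phase difference. Tests of the first 3 genes in the fits of day-night change and region were replaced by values, since their choice used these contrasts or parts of them. P-values were adjusted over all genes tested. Positive log2 changes mean a higher level in Day or in hippocampus. The SE was computed from the change and the F statistic of its test. Log2 CPM used a prior count of 2. Symbols and exon lengths came from GENCODE M21, which matched 49412 of 49671 genes.

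The 9 genes and the lists were chosen with earlier results of these data known. Beside them the text names, per family list, up to 3 genes of lowest p in the averaged day-night change that were called and had a mean log2 CPM of 2 or more, and for each of the first 3 genes the 3 most alike. Some genes that this rule names are not reported here. Col9a3 and Tubb4b are named as the next in rank, and Fastk, Gm16156 and Cdadc1 as overlapping genes. In simulated counts where 200 genes had a 2-fold change, the fit recovered 196 in the hippocampus, 199 in the frontal cortex, 190 for the region by phase difference and 149 and 133 for a phase by condition difference in hippocampus and frontal cortex. In the same order 7, 12, 14, 7 and 6 unchanged genes were called. The changed genes were drawn above a limit of mean CPM, and counts varied independently between libraries. Changes under 2-fold, such as that of Wnk1, were not simulated. Alternatives were other scalings, filters, DESeq2 1.42.0, a block, covariates and left-out libraries. The GC and CCAAT boxes were added to the motif search after the promoter sequences were seen.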

Additional observations from a re-analysis of the deposited data

Results flagged for a closer look

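Among 160 groups of 4 libraries (9 genes and Ttr in 16 groups), 12 held a library with a gap to its nearest neighbour above the limit of Dixon's test, where chance gives about 1 in 20, or 8. For Slc4a2, hippocampus Day Soci replicate 2 had 51.4 CPM against 45.2 to 45.7 in the other 3 libraries, and hippocampus Day Cogn replicate 1 had 48.3 CPM against 45.3 to 45.6. For Slc12a4, frontal cortex Night Ctr1 replicate 3 had 21.6 CPM against 19.4 to 19.6. For Slc12a2, frontal cortex Day Cogn replicate 1 had 137 CPM against 119 to 122. For Slc12a7, hippocampus Night Cogn replicate 1 was low, with 25.9 CPM against 29.9 to 30.4. For Slc4a7, frontal cortex Night Ctr1 replicate 2 was low, with 72.1 CPM against 86.3 to 88.1, and frontal cortex Day Cogn replicate 1 was high, with 96.8 CPM against 89.2 to 90.5. For Slc4a10, hippocampus Day Cogn replicate 3 had 20.0 CPM against 9.45 to 9.68, and frontal cortex Night Cogn replicate 1 had 18.2 CPM against 9.93 to 11.2.

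Ttr stood out in 3 frontal cortex Day libraries. Soci replicate 4 had 329 CPM against 11.8 to 27.3, Cogn replicate 4 had 408 CPM against 6.47 to 18.7, and Ctr1 replicate 1 had 165 CPM against 5.28 to 27.7. Hippocampus Night Ctr0 replicate 4, at 7.85 CPM, was not among the 12.

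The day-night change of Stk39 differed between the regions by a log2 of -0.92 (edgeR, adjusted p = 0.0481), in a test that 1.19% of all genes passed. The call was lost without replicate 1, 2 or 4 and under 9 other settings. The values of Slc4a2, -0.80, Slc12a4, -0.57, and Cab39l, -1.15, are those that chose these genes and are a description.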

How the results depend on the processing

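Library totals alone moved the median log2 change of all genes to -0.14 in hippocampus, -0.09 in frontal cortex, -0.12 averaged over regions and -0.11 between regions, and gave 4293, 4065, 3862 and 0 genes in place of 6550 (hippocampus), 6266 (frontal cortex), 0 (conditions in hippocampus) and 1 (phase by condition in frontal cortex). Slc4a7 was then -0.026 in hippocampus and -0.00321 averaged over regions. The share of hippocampus calls that were higher in Day was 55.5%, and 6.10% with library totals alone.

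With Ttr as a covariate 519 genes in place of 2667 differed between regions, 79 in place of 191 had a region by phase difference and 0 a phase by condition difference in frontal cortex. With the choroid plexus score these counts were 231, 24 and 0, the hippocampus count was 4205, and 0 of the 6 relatives differed between regions. With the 7 scores 337 genes passed in hippocampus (1 of 6 relatives), 2076 in frontal cortex (2 of 6), 5841 averaged over regions (2 of 6) and 1053 by region and phase, and 0 of 6 differed between regions. The signs of Slc4a10 (0.24) and Stk39 (0.16) in frontal cortex, of Slc12a2 between regions (-0.14) and of Slc12a2 (0.11) and Slc12a7 (0.053) by region and phase reversed. The log2 total count as a covariate left 1693 genes between regions. Without filtering, 1 gene passed for conditions in frontal cortex. Without the 5 libraries of outlying total, 77 genes had a region by phase difference. The causes were not tested.

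The call of Stk39 (1 of 6 relatives, 0 without it) was lost with median of ratios factors, without filtering, with both blocks, both choroid plexus covariates, the 7 scores, means per condition and without those 5 libraries. The region by phase values of the first 3 genes kept their sign under each setting run, from -0.86 to -0.62 for Slc4a2, from -0.64 to -0.45 for Slc12a4 and from -1.33 to -0.43 for Cab39l. This difference chose the genes in the same libraries, so the kept sign is a description and not a test. Leaving out a replicate number or hippocampus Night Ctr0 replicate 4 gave 4319 to 7356 genes in hippocampus (5 to 6 of 6 relatives), 3941 to 6403 in frontal cortex, 7208 to 9074 averaged over regions (5 to 6 of 6), 1322 to 3518 between regions, 15 to 239 by region and phase (0 to 1 of 6), 0 to 328 for conditions in hippocampus and 0 for phase by condition in frontal cortex. The lowest of the last counts, 15, was without replicate 2, 3518 without replicate 1 and 328 without replicate 1. Relations with Ttr passed in 5 to 9 of 36.

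Libraries with the same replicate number were not taken as pairs, since not every pair of their deviations had an r over 0.1. Noisy libraries can miss that rule even where they are paired, so it does not show that they were unpaired. Within hippocampus 44 of 112 pairs of the same number had an r over 0.1 (median 0.02, lowest -0.72, against a median of -0.00543 for other numbers), and within frontal cortex 55 of 112 (median 0.07, lowest -0.63, against -0.05). In hippocampus Night alone it was 16 of 24 (median 0.19), against 22 of 72 pairs of other numbers (median -0.07). Across regions it was 12 of 32 (median 0.00632). The replicate block gave 6546 genes in hippocampus, 6505 in frontal cortex, 8999 averaged over regions, 2937 between regions, 187 by region and phase, 2 for conditions in hippocampus and 0 for phase by condition in frontal cortex. Stk39 had an adjusted p of 0.0642 under the replicate block and 0.121 under the block of region pairs (edgeR), where 148 genes had a region by phase difference.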
